A study of Mus musculus with 10 samples.

Results

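The genes of translation initiation and elongation factors were compared in 5 cell populations sorted from the hair follicle and dermis of mouse backskin. They were all genes whose symbol began with Eif or Eef and a digit in the array's probe annotation, and the brightest probe-set stood for each gene. This gave 52 of the 12393 genes named by a single symbol on the array, of which 40 passed a filter on the mean signal over all 10 arrays. All mice were 4 days old (P4) and carried both transgenes, K14-H2BGFP, a nuclear green reporter driven by the keratin 14 promoter of skin epithelium, and Lef1-RFP, a red reporter driven by a fragment of the human Lef1 promoter. The matrix (Mx) held GFP-low and RFP- cells and the outer root sheath (ORS) GFP-high and RFP- cells. The dermal papilla (DP) held RFP-high and GFP- cells, and the dermal fraction (DF) cells with neither reporter, both after removal of cells with CD117, CD45 or CD34, which mark melanocytes, lymphocytes and endothelial cells. Melanocytes (Mc) were RFP-high, GFP- and CD117+. Each population had 2 arrays, the backskins of several mice were pooled, and the red reporter marked the DP and Mc but not the Mx cells that use the mouse's own Lef1.

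Protein synthesis starts when eIF2 carries the initiator tRNA to the small ribosomal subunit, on a scaffold made by the many subunits of eIF3. The eIF4 group binds the cap of the mRNA and unwinds its leader, eIF1 and eIF1A guide the scan for the start codon, and eIF5, eIF5B and eIF6 act where the subunits join. Elongation then uses eEF1A to deliver tRNAs, the eEF1B subunits to recharge eEF1A with GTP, and eEF2 to move the ribosome. These factors are used by every cell, and the matrix at P4 is a compartment of rapidly dividing progenitors that feed the growing hair.

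The values were array signals on a linear scale, and folds and log2 differences refer to log2(signal + 50), which understates the change of dim genes. The 2 arrays of a population gave the spread, which limma pooled over populations and probe-sets, so p-values measure only the spread between these samples. In sorted bulk samples, fewer cells of a type and less RNA per cell cannot be told apart. The median signal of an array ran from 49.9 in Mx replicate 1 to 90.9 in DP replicate 2. Each population's own marker list had its highest summed signal there, but 3 of the 6 DF markers had their highest mean elsewhere, Lum and Pdgfra in DP and Dcn in Mx, where Dcn read 4725 and 3052 against 1326 and 1914 in DF. The Mc list also summed to 23725 and 14712 in DP and to 12577 in DF replicate 1. Some markers of other cell types were high in DF, namely Alas2 of red cells at 3462 and 4266, Kdr and Lyve1 of endothelium at 658.4 to 1792, Mbp of Schwann cells at 2054 and 1490.5 and Fabp4 of fat at 1191.5 and 1770.5. The red cell genes Hba-a1, Epb42 and Rhd and the fat gene Adipoq were below 50 there, S100b of Schwann cells was higher in DP (247.8 and 276.7), and Fabp4 also read 385.1 and 341.8 in Mx. Xist, the RNA of the inactive X chromosome, read 42.2 in Mx replicate 1 and 49.8 in ORS replicate 1. It read 450.9 and 445.1 in Mc and 3077 to 4867 on the remaining arrays, and the sex of the mice is not in the labels. Actin's ratio of 3' to 5' signal, a sign of RNA integrity, was 2.09 and 1.73 in Mx and 1.22 to 1.47 elsewhere. The same ratio of Gapdh did not set Mx apart, at 1.02 and 1.16 in Mx and 0.79 to 1.19 elsewhere. Signals of 7 markers of dividing cells summed to 9344 to 13517 in Mx and ORS against 3593 to 6394 in the other populations. The part of these in the differences below was not tested.

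The factors differed between the populations about as often as other genes did. By limma's F-test, 26 of 40 factors (65%) had an adjusted p under 0.05, against 62.1% of the 3840 genes tested. A widest difference of at least 2-fold between population means went with that call in 16 factors (40%), against 41.7% of genes. A gene was taken as even where the 95% intervals of all 10 differences between populations lay within 2-fold, and 10 factors (25%) were even, against 22.7% of genes. That count was 6 without ORS replicate 1 and 5 without DF replicate 2. The median widest log2 difference was 0.90 for the factors and 0.88 for all genes. The remaining 4 factors, Eif2b1, Eif4e2, Eef1a1 and Eif4b, neither passed the F-test nor met the even criterion.

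**Figure D1:**
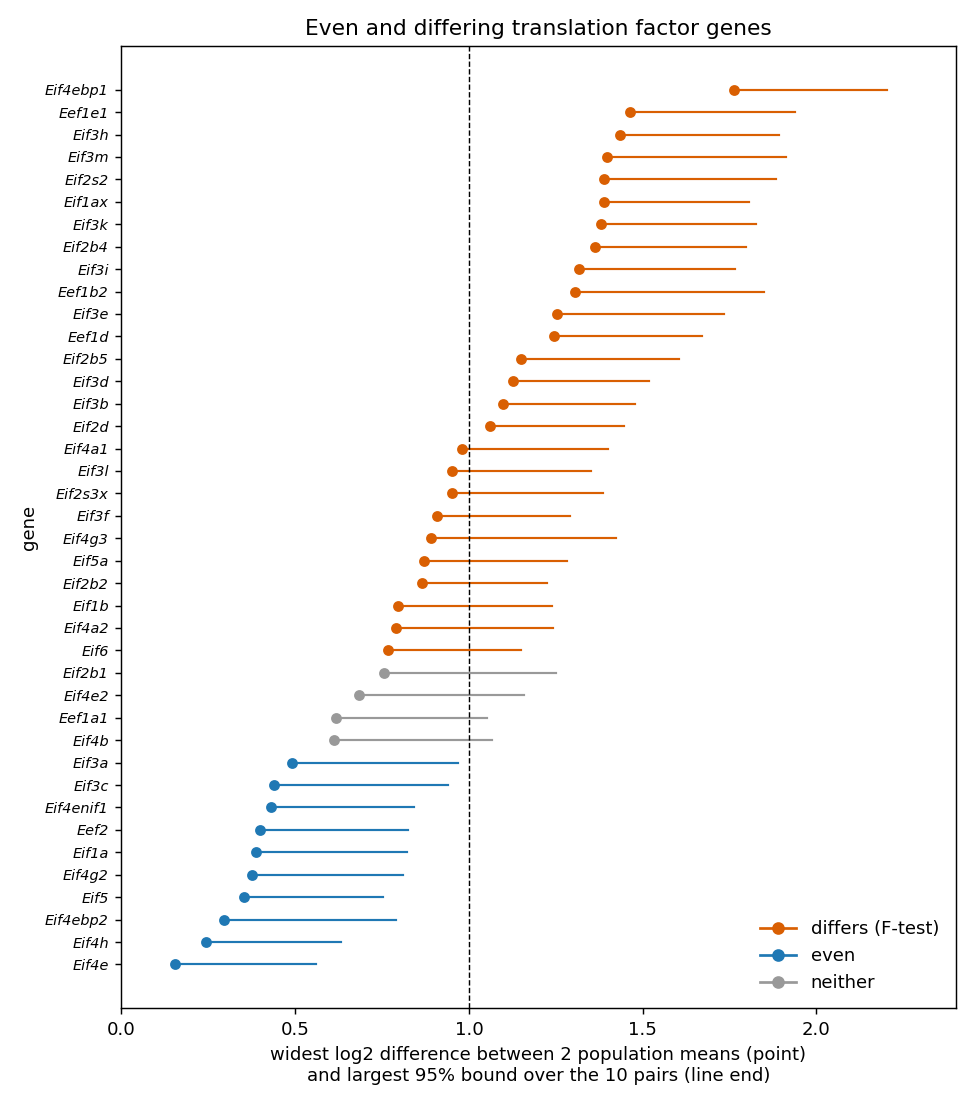
Each tested factor with its widest log2 difference between 2 population means (point) and the largest 95% bound over the 10 pairs of populations (end of the line), 2 arrays a population. The 10 even genes in blue end left of the dashed 2-fold line, and Eif4ebp1 leads the 26 differing genes in orange at 1.76.

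The genes nearest the limits were as follows. Eif4g3, with an adjusted p of 0.0354, lay just inside the F-test's limit and Eif2b1, with 0.0622, just outside. The largest bound over the 10 intervals was 1.96-fold for Eif3a, the even gene nearest the limit, and 2.08-fold for Eef1a1, the nearest gene outside it.

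Of the 26 factors that differed, 22 had their highest mean in Mx. The like share of all genes that differed was not taken, so this count has none beside it. Against the mean of the other 4 populations, 23 of 40 factors were higher in Mx (57.5%) and 1 was lower, where 22.6% of genes were higher and 26.7% lower. The median log2 difference of Mx was 0.61 for the factors and -0.05 for all genes. In DP 1 factor was higher and 18 were lower (45%), against 15.4% and 14.8% of genes, and in Mc none was higher and 12 were lower (30%), against 14.9% and 22.4%. In ORS 3 were higher and none lower, against 15.1% and 8.88% of genes, and in DF 3 were higher and 1 lower, against 15.1% and 6.82%. As single arrays were left out, the counts in ORS and DF ranged from 0 to 7. At an unadjusted p under 0.05 limma called 0 factors higher in Mc and 1 lower in ORS. The 5 comparisons share their samples, so a gene high in Mx lowers the other 4 populations by construction.

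**Figure D2:**
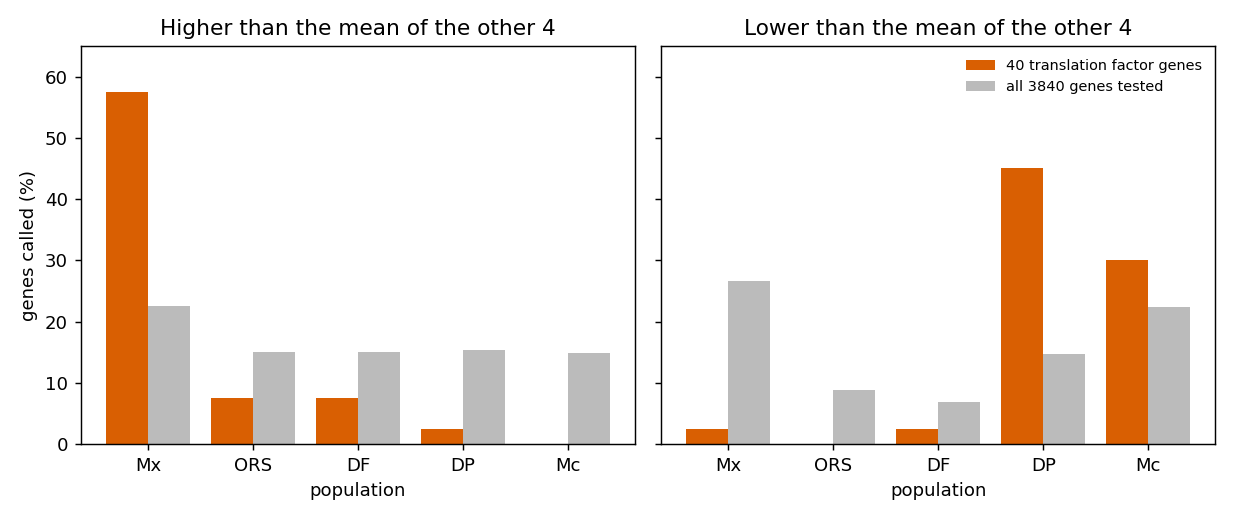
Percent of the 40 tested factor genes (orange) and of all 3840 tested genes (gray) called higher (left) or lower (right) in each population than in the mean of the other 4, by limma at an adjusted p under 0.05. Factors stand above other genes as higher in Mx (57.5% against 22.6%) and lower in DP (45% against 14.8%).

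With any array left out, 23 to 25 factors were higher in Mx, among them at least 22 of the 23. The count in DP was less stable, as 2 factors were lower without DP replicate 1 and 1 without DP replicate 2. In Mc 5 factors were lower without Mc replicate 1, 1 without Mc replicate 2 and 19 without Mx replicate 2, and the 12 with the deposited scaling became 6 after quantile normalization and 5 after rescaling to the trimmed mean.

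All 23 factors higher in Mx had their highest mean there, which the call itself favors, and in 21 of them ORS came second. Neither count has a share of all genes beside it. The folds of the 23 factors over the mean of the other populations ran from 1.35 to 2.27. Both Mx arrays lay above all other 8 arrays in 21 of the 40 factors, against 11.6% of genes. Mx replicate 1 read above Mx replicate 2 in 15 of the 23. One of the 23, Eef1e1, passed the filter only with the Mx arrays counted, so its call leaned toward Mx by construction, and with the filter set on the other 8 arrays 22 factors were higher in Mx, all among the 23, against 19.9% of genes. Without Mx replicate 1 and ORS replicate 1, the arrays with the lowest Xist signal, the median log2 difference of Mx was 0.57 for the factors and 0.03 for all genes. That fit kept both Mc arrays, whose Xist signal lay between these and the remaining arrays. Within the first chip lot, which held both Mx arrays and 1 array of each other population, both Mx arrays lay above the other 4 in 23 of 40 factors (57.5%), against 14.0% of genes. The factors are bright genes: of the 509 genes at or above the factors' median level, a signal of 989.4, 36.7% were higher in Mx, against 11 of the 20 factors at or above it.

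**Figure D3:**
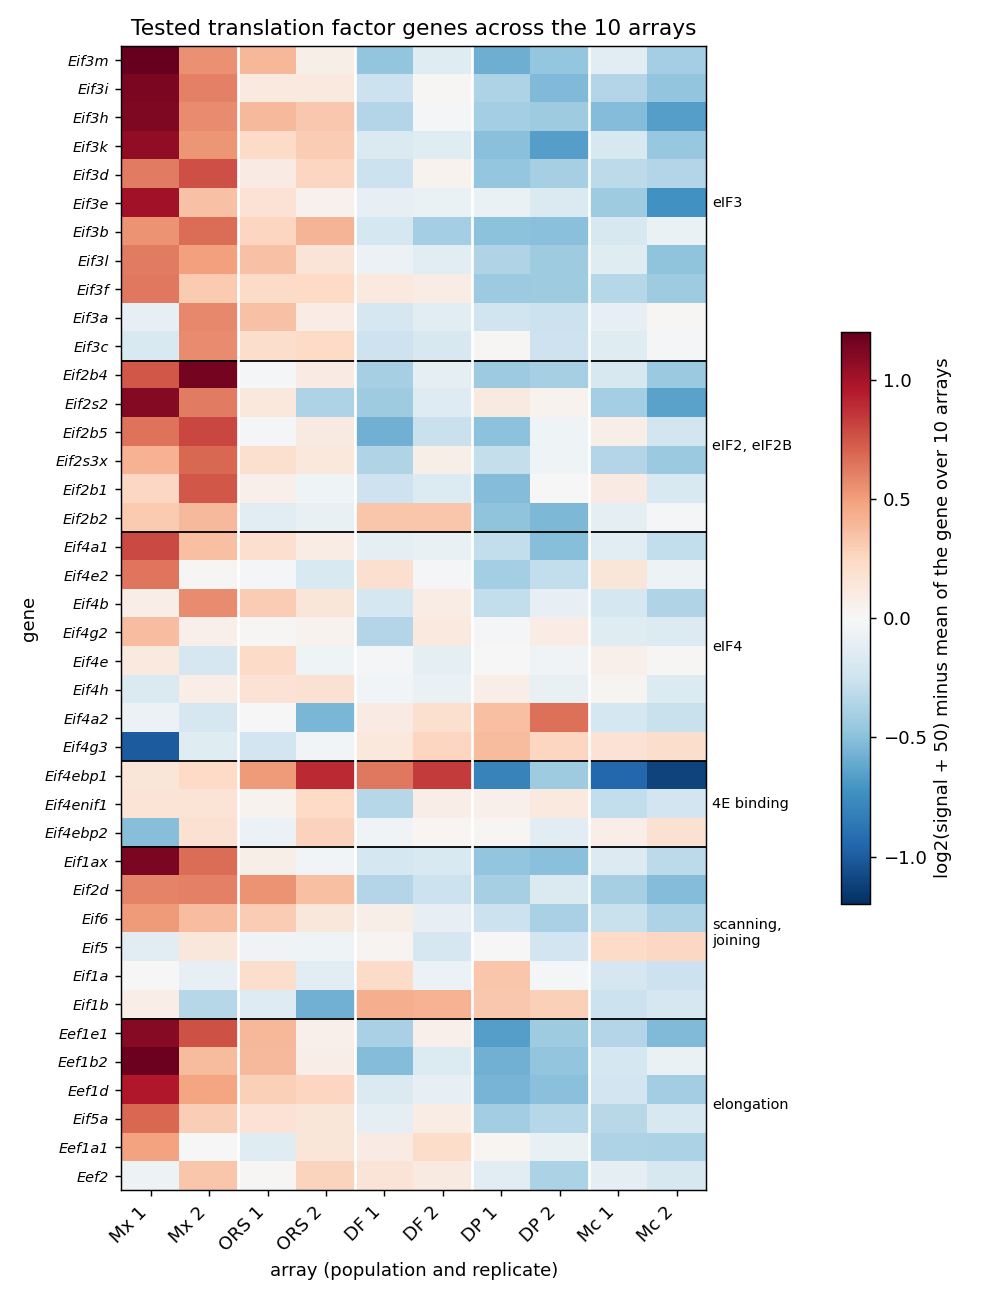
Log2(signal + 50) of each of the 40 tested factors on each of the 10 arrays, minus the gene's mean over the arrays, grouped by role. Most eIF3, eIF2, eIF2B and elongation genes are red on the Mx arrays and blue on the DP and Mc arrays, whereas Eif4ebp1, Eif4a2, Eif1b and Eif4g3 follow other orders.

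Of the eIF3 subunits, 9 of 11 differed, 9 were higher in Mx and 2 were even. The shares of all genes tested were 62.1%, 22.6% and 22.7%. Eif3h read 3385 and 2289.9 in Mx, 2018 and 1934 in ORS, 1191 and 1506 in DF, 1146 and 1132 in DP and 1052 and 950.3 in Mc. Both Mx arrays were above all others and both Mc arrays below all others. Its level in Mx was 2.07 times the mean of the other populations (1.05 ± 0.17 SE on the log2 scale, adjusted p = 2.85e-04, limma).

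Eif3m read 1079.5 and 674 in Mx, 602 and 469.5 in ORS, 305 and 398 in DF, 279 and 308 in DP and 401 and 322 in Mc. Mx replicate 2 was above both ORS arrays by less than the gap between the Mx arrays. Eif3k, a small subunit, read 2206 and 1509 in Mx, 1216 and 1280.1 in ORS, 905 and 924 in DF, 713 and 631 in DP and 893 and 739 in Mc, with both Mx arrays highest and both DP arrays lowest. The Mx folds were 2.13 (1.09 ± 0.19 SE on the log2 scale, adjusted p = 4.93e-04) and 2.00 (1.00 ± 0.16 SE on the log2 scale, adjusted p = 3.41e-04).

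Eif3i read 4937 and 3398 in Mx, 2412 and 2413 in ORS, 1853 and 2253 in DF, 1708 and 1529 in DP and 1733 and 1585 in Mc. The ORS arrays were close to each other and well below both Mx arrays, and Eif3i was among the 6 factors that passed the test between Mx and ORS. Eif3e, also known as Int6, read 5165 and 3264 in Mx, 2868 and 2635 in ORS, 2373 and 2409 in DF, 2409 and 2252 in DP and 1886 and 1520.5 in Mc, and here both Mc arrays were lowest. Both genes were highest in Mx, 2.12 and 1.80 times the mean of the others.

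Eif3b, a subunit that other subunits dock on, read 1348 and 1482 in Mx, 1099 and 1227 in ORS, 784 and 677 in DF, 636 and 632 in DP and 794 and 859 in Mc. The order ran from Mx to ORS and then to the rest, with both DP arrays lowest. Eif3d, a subunit that can contact the cap, read 1489 and 1661 in Mx, 1020.4 and 1146 in ORS, 789 and 979 in DF, 677 and 710.5 in DP and 755 and 736 in Mc, again with both Mx arrays highest and both DP arrays lowest. Their Mx folds were 1.69 (0.76 ± 0.14 SE on the log2 scale, adjusted p = 7.73e-04) and 1.83 (0.87 ± 0.14 SE on the log2 scale, adjusted p = 3.56e-04). Eif3f and Eif3l were 1.51 and 1.62 times the mean of the others in Mx.

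The 2 even subunits were the large scaffold genes, Eif3a and Eif3c. Eif3a read 1433 and 2310.4 in Mx, 1970.4 and 1638 in ORS, 1325 and 1392 in DF, 1289 and 1274 in DP and 1429 and 1551 in Mc. The Mx arrays enclosed both ORS arrays, and without Mx replicate 1 the F-test called Eif3a (adjusted p = 0.0142, limma). Eif3c read 1229 and 2098 in Mx, 1625 and 1659 in ORS, 1173 and 1223 in DF, 1416 and 1169 in DP and 1262 and 1383 in Mc by its brightest probe-set. Its 3 other tested probe-sets all passed the F-test, 2 of them with Mx and 1 with ORS highest and all with DP lowest, so the call of even rests on 1 probe-set.

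**Figure D4:**
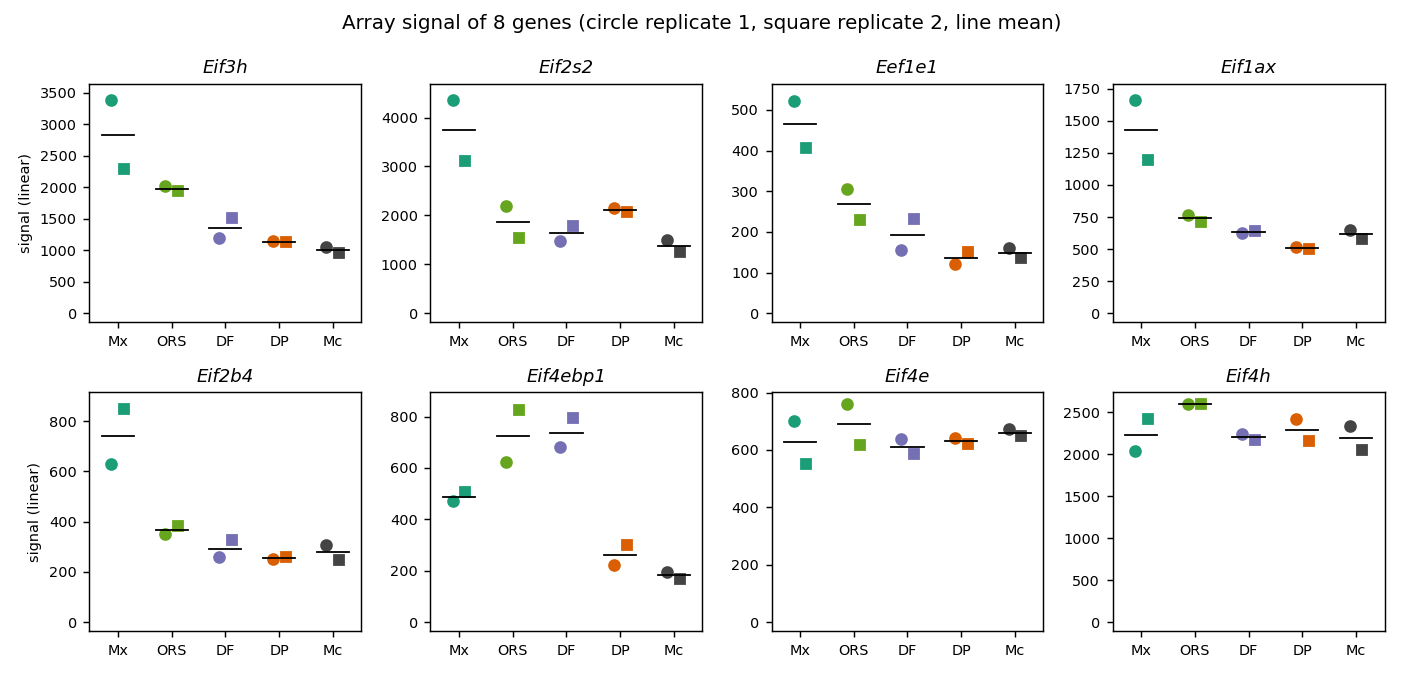
Linear array signal of 8 factors by population, with replicate 1 as a circle, replicate 2 as a square and the mean as a line. Eif3h, Eif2s2, Eef1e1, Eif1ax and Eif2b4 are highest in Mx, Eif4ebp1 is low in DP and Mc, and Eif4e and Eif4h are even.

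All 6 tested genes of eIF2 and its exchange factor eIF2B were higher in Mx, against 22.6% of all genes tested. Eif2s2, the beta subunit of eIF2, read 4358 and 3115 in Mx, 2197 and 1534 in ORS, 1479 and 1789.5 in DF, 2155 and 2064 in DP and 1499.8 and 1262 in Mc. The Mx arrays stood highest, and the DP arrays lay within the range of ORS. The Mx fold was 2.11 (1.08 ± 0.18 SE on the log2 scale, adjusted p = 3.96e-04, limma). Among its other tested probe-sets, 2 were also highest in Mx, 1 was not called by the F-test, and 1 had its highest mean in DP.

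Eif2b4, the delta subunit of eIF2B, read 630 and 849 in Mx, 349 and 384 in ORS, 258 and 326 in DF, 250.4 and 258 in DP and 306 and 249 in Mc. The Mx arrays lay above all others, and ORS, DF, DP and Mc lay between 248.7 and 383.7. It had the largest Mx fold of the factors, 2.27 (1.18 ± 0.16 SE on the log2 scale, adjusted p = 6.98e-05). Eif2b5, the catalytic subunit, was 1.88 times the mean of the others in Mx, with signals of 486 and 544 in Mx, 284 and 316 in ORS, 179 and 232 in DF, 191 and 278 in DP and 307 and 242 in Mc. Both Mx arrays of Eif2b5 lay above all other arrays.

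Eif2b2, the beta subunit, went another way and read 952 and 1004 in Mx, 687 and 709.6 in ORS, 965 and 963 in DF, 526 and 504 in DP and 700.1 and 750.3 in Mc. The Mx and DF arrays overlapped above the rest, and both DP arrays were lowest. It was higher in Mx (0.44 ± 0.13 SE on the log2 scale, adjusted p = 0.0151) and in DF (0.41 ± 0.13 SE on the log2 scale, adjusted p = 0.0416) and lower in DP (-0.64 ± 0.13 SE on the log2 scale, adjusted p = 0.00327) than in the mean of the others. Of its other tested probe-sets, 1 was also higher in Mx (0.45 on the log2 scale, adjusted p = 0.018, limma), whereas the other read 309.2 and 345.9 in Mx and was highest in DF at 534.5 and 556.2, with a Mx difference of 0.05 (adjusted p = 0.786, limma). Eif2b1, the alpha subunit, read 298 and 440.4 in Mx, 256 and 232 in ORS, 196 and 212 in DF, 154 and 243 in DP and 264 and 208 in Mc. Its Mx level was 1.54 times the mean of the others (0.62 ± 0.18 SE on the log2 scale, adjusted p = 0.0122), although its F-test missed the limit.

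The gamma subunit of eIF2 has one gene on the X and one on the Y chromosome. Eif2s3x, the X-linked copy, read 1236 and 1504 in Mx, 1051 and 998 in ORS, 702 and 961 in DF, 739 and 877 in DP and 707 and 658 in Mc. The Mx arrays stood highest, the one with a low Xist signal included, and the Mx fold was 1.62 (0.69 ± 0.16 SE on the log2 scale, adjusted p = 0.00327). Eif2s3y, the Y-linked copy, stayed under the filter and read 194 and 88.2 in Mx, 149.9 and 37.3 in ORS, 50.4 and 60.3 in DF, 58.4 and 82.8 in DP and 119.9 and 121 in Mc. Within Mx and within ORS the array with the low Xist signal was the higher one for Eif2s3y. Other Y-linked genes, Kdm5d, Uty and Usp9y, were dim. For Kdm5d and Uty the array with the low Xist signal was the higher one only in ORS. For Usp9y it was so in neither population, with 15 in ORS replicate 1 and 27.1 in ORS replicate 2. The signals of Kdm5d, Uty and Usp9y summed to 166.6 in ORS replicate 1 and 88 in ORS replicate 2, but to 84.6 in Mx replicate 1 and 103 in Mx replicate 2. These sums were highest in Mc, at 190.4 and 188.

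**Figure D5:**
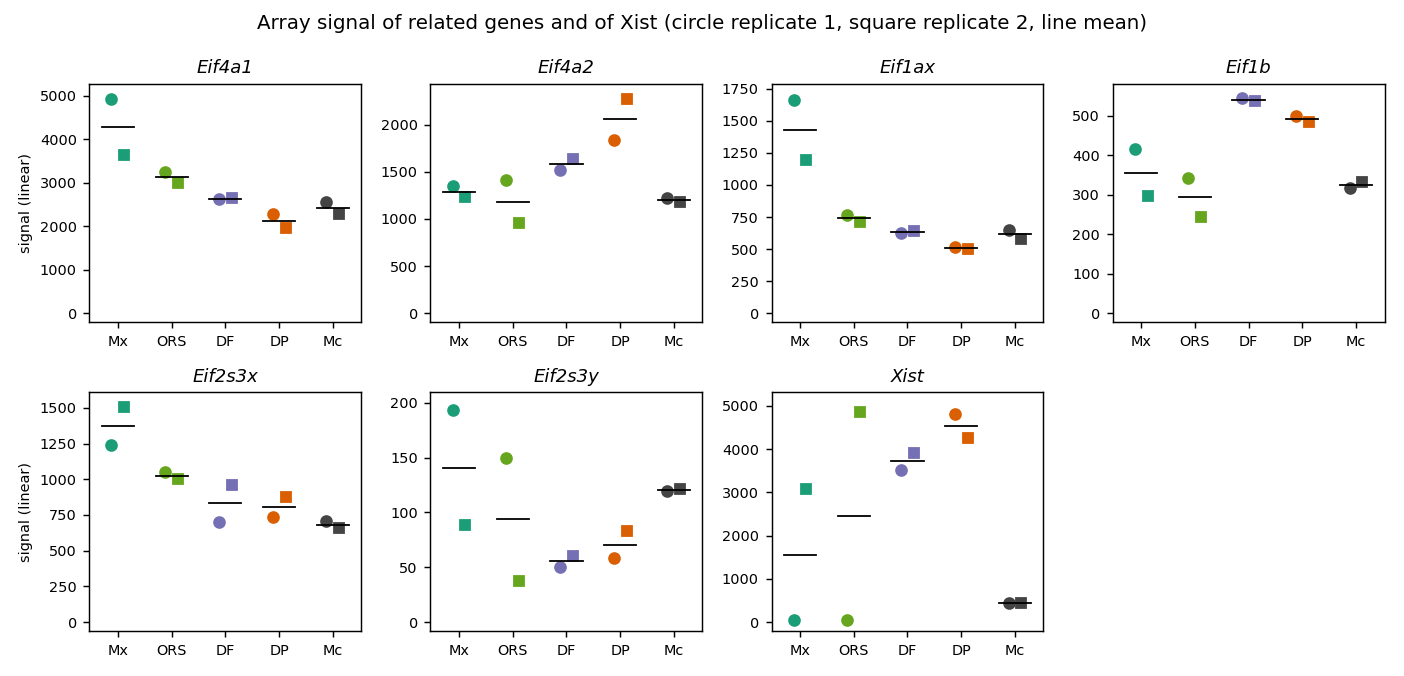
Linear array signal of Eif4a1 and Eif4a2, Eif2s3x and Eif2s3y, Eif1ax and Eif1b, and of Xist by population. Replicate 1 is a circle, replicate 2 a square and the mean a line. Eif1ax encodes eIF1A and Eif1b a relative of eIF1, a different factor. Eif1a, the relative of Eif1ax, was even and is not shown. Eif4a1 is highest in Mx and Eif4a2 in DP, Eif1ax is highest in Mx and Eif1b in DF and DP, and Xist separates replicate 1 from replicate 2 in Mx and ORS.

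Of the genes for scanning, subunit joining and ribosome binding, 4 of 6 differed, 3 were higher in Mx and 2 were even. Over all genes tested these shares were 62.1%, 22.6% and 22.7%. Eif1ax, the X-linked gene of eIF1A, read 1663 and 1198 in Mx, 769.6 and 713 in ORS, 627 and 638 in DF, 514 and 503 in DP and 649 and 579 in Mc. The Mx arrays were highest by a wide margin and both DP arrays lowest, at 2.19 times the mean of the other populations in Mx (1.13 ± 0.15 SE on the log2 scale, adjusted p = 7.28e-05, limma). Its relative Eif1a was even and read 252 and 232 in Mx, 298 and 226 in ORS, 303 and 237 in DF, 329 and 249 in DP and 213 and 202 in Mc.

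Eif2d, which can bring tRNA to the start codon without eIF2, read 400.4 and 402 in Mx, 382 and 332 in ORS, 182 and 199 in DF, 175 and 214 in DP and 176 and 157 in Mc. The epithelial populations Mx and ORS did not overlap with the dermal ones or with Mc. It was higher in Mx (0.75 ± 0.14 SE on the log2 scale, adjusted p = 8.80e-04) and in ORS (0.56 ± 0.14 SE on the log2 scale, adjusted p = 0.0111). Eif6, which keeps the large subunit from joining too early, was 1.47 times the mean of the others in Mx, with means from 939 ± 66.3 in Mx to 531 ± 39.3 in DP (SD, n = 2).

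Eif1b, a relative of the start codon factor eIF1, was highest in the dermal populations and read 415 and 296 in Mx, 343 and 244 in ORS, 544 and 536 in DF, 499 and 485 in DP and 317 and 331 in Mc. Both DF arrays were above all others and the DP arrays came next. It was higher in DF than in the mean of the others (0.53 ± 0.16 SE on the log2 scale, adjusted p = 0.0338), a call lost in 7 of the 10 fits that left out a single array. Eif5, which makes eIF2 hydrolyze its GTP at the start codon, was even, with both Mc arrays highest at 1343 and 1367 and the other 8 arrays from 965.6 to 1257.

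Of the 8 tested eIF4 genes of cap binding and unwinding, 3 differed, 3 were even and 1, Eif4a1, was higher in Mx. Over all genes tested these shares were 62.1%, 22.7% and 22.6%. Eif4a1, the main helicase of initiation, read 4923 and 3638 in Mx, 3247 and 2999 in ORS, 2616 and 2641 in DF, 2291 and 1966 in DP and 2555 and 2286 in Mc. Both Mx arrays were highest, at 1.65 times the mean of the others (0.72 ± 0.15 SE on the log2 scale, adjusted p = 0.00214, limma). Its 2 other tested probe-sets had F-test adjusted p-values of 0.0504 and 0.0626.

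Eif4a2, a close relative, ran the other way and read 1352 and 1228 in Mx, 1414 and 955 in ORS, 1523 and 1633 in DF, 1839 and 2276 in DP and 1219.8 and 1175 in Mc. Both DP arrays were highest, and DP lay above the mean of the others (0.64 ± 0.17 SE on the log2 scale, adjusted p = 0.0127). The F-test's adjusted p was 0.0236 with all arrays, 0.17 without DP replicate 2 and 0.0546 without Mc replicate 2.

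Eif4g3, a scaffold that joins the cap-binding protein to the helicase, was the only factor called lower in Mx and read 215 and 432 in Mx, 404 and 471 in ORS, 528 and 584 in DF, 643 and 585 in DP and 547 and 564 in Mc. Mx replicate 1 was far below every other array, while Mx replicate 2 lay within the ORS arrays. The call (-0.71 ± 0.19 SE on the log2 scale, adjusted p = 0.00872) was lost without Mx replicate 1, where 0 factors were lower in Mx. The F-test of Eif4g3 missed its limit in 8 of the 10 fits without a single array (adjusted p = 0.0506 to 0.0809, limma), with no filter (0.0843) and with chip lot as a block (0.0782). Eif4g2, a scaffold that cannot bind the cap protein, was even, with signals from 2561 to 4269.

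Eif4e, the cap-binding protein, was the flattest factor and read 701 and 552 in Mx, 759.5 and 618 in ORS, 636 and 585 in DF, 639.9 and 619.7 in DP and 672 and 648 in Mc. The Mx arrays enclosed those of DF, DP and Mc, the widest difference was 1.11-fold, and no bound of the 10 intervals was beyond 1.47-fold. Eif4h, a helper of the helicase, was even within 1.55-fold and read 2036 and 2422 in Mx, 2599.6 and 2605 in ORS, 2237 and 2167 in DF, 2428 and 2163 in DP and 2344 and 2047 in Mc.

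Eif4e2, a second cap-binding protein, and Eif4b, another helper, did not pass the F-test (adjusted p = 0.114 and 0.0745, limma). Their other tested probe-sets did in 1 case each, with adjusted p-values of 0.00313 for Eif4e2 and 0.0272 for Eif4b, and the highest mean in Mx.

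Among the proteins that hold back the cap-binding protein, Eif4ebp1 had the widest difference of all factors. This repressor, a target of mTOR kinase, read 473 and 505 in Mx, 624 and 827 in ORS, 682 and 793 in DF, 221 and 301 in DP and 195 and 169 in Mc. The ORS, DF and Mx arrays were all above the DP and Mc arrays, and both Mc arrays were lowest. DF was 3.39 times Mc (log2 difference 1.76, standard error 0.20, F-test adjusted p = 2.43e-05, limma). A second probe-set of the gene gave an ORS to Mc fold of 3.41.

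Eif4ebp2, a repressor of the same family, was even, and its level ran from 167.3 in Mx replicate 1 to 323.7 in ORS replicate 2. Eif4enif1, which carries the cap-binding protein into the nucleus, was even too, from 262.5 to 418.

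Of 6 tested genes of elongation factors and associated proteins, 4 differed, all 4 were higher in Mx and 1 was even. Over all genes tested these shares were 62.1%, 22.6% and 22.7%. The 4 include Eef1e1, whose calls leaned toward Mx by construction. Eef1e1, an accessory protein of the complex of tRNA synthetases, read 523 and 407 in Mx, 305 and 230.4 in ORS, 155 and 231 in DF, 121 and 151 in DP and 161 and 136 in Mc. The Mx arrays stood highest, ORS had the next mean, and DP and Mc overlapped at the bottom. Its Mx level was 2.23 times the mean of the others, given without a test because the gene passed the filter only through its Mx arrays.

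The exchange subunits of eEF1B moved the same way. Eef1b2 read 4521 and 2580 in Mx, 2591 and 2079.6 in ORS, 1358 and 1758 in DF, 1307 and 1402 in DP and 1696 and 1863 in Mc, and Mx replicate 2 lay just below ORS replicate 1. Eef1d read 2140.3 and 1516 in Mx, 1328 and 1294 in ORS, 949.9 and 1002 in DF, 717 and 745 in DP and 913 and 795 in Mc, with both Mx arrays highest and both DP arrays lowest. Their Mx folds were 1.96 (0.97 ± 0.20 SE on the log2 scale, adjusted p = 0.00158) and 1.86 (0.90 ± 0.15 SE on the log2 scale, adjusted p = 5.07e-04).

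Eif5a, the hypusine-bearing factor that helps ribosomes past difficult stretches, read 6656 and 5062 in Mx, 4627 and 4550.3 in ORS, 3800 and 4373 in DF, 3068 and 3238 in DP and 3242 and 3579 in Mc, with both Mx arrays highest and both DP arrays lowest. The Mx fold was 1.53 (0.62 ± 0.15 SE on the log2 scale, adjusted p = 0.00466), and after quantile normalization its F-test was no longer past the limit (adjusted p = 0.325). A second probe-set gave a widest fold of 2.81 with the same order of Mx over DP.

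The central factors of elongation did not pass the F-test with all arrays. Eef1a1, which delivers tRNAs, read 12741 and 9185 in Mx, 8230.2 and 10119 in ORS, 9805 and 10664 in DF, 9259.6 and 8564 in DP and 7069.6 and 7008 in Mc. Both Mc arrays were lowest, and Mc was the population it differed in (-0.47 ± 0.16 SE on the log2 scale, adjusted p = 0.0371), while Mx replicate 2 was within the range of ORS, DF and DP. Eef2, the translocase, was even within 1.77-fold and read 4343 and 5708 in Mx, 4581 and 5462 in ORS, 5048 and 4894 in DF, 4107 and 3479 in DP and 4185 and 3963 in Mc. Both results depended on single arrays. The log2 difference of Eef1a1 between Mx and Mc rose from 0.62 to 0.85 without Mx replicate 2. That of Eef2 between ORS and DP rose from 0.40 to 0.53 without Mx replicate 1 and ORS replicate 1.

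The filter removed 12 factors, which were therefore called neither even nor differing. The kinases of eIF2 were all among them. Eif2ak1, the heme-regulated kinase, read 61.9 to 156.6 over the 10 arrays, Eif2ak2, the kinase of double-stranded RNA, 39.3 to 95.7, and Eif2ak4, the amino acid sensor, 28.7 to 60.8. Eif2ak3, the kinase of the stressed endoplasmic reticulum, read 104 and 148 in Mx, 154 and 124 in ORS, 239 and 202 in DF, 315 and 311 in DP and 207 and 252 in Mc, and both DP arrays were highest.

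The kinase of eEF2, Eef2k, read 73.9 to 169.2. The methyltransferase genes Eef1akmt1, Eef1aknmt and Eef2kmt reached at most 198.3, 56.5 and 11.3. Eef1a2, the elongation factor form of muscle and nerve, read 84.2 and 85.9 in Mx, 56.6 and 105 in ORS, 112 and 106 in DF, 139 and 149.9 in DP and 192 and 414 in Mc, and both Mc arrays were highest. Skeletal muscle markers summed to 324.3 or less on every array, and the source of the Eef1a2 signal was not tested. Eif4e3, another cap-binding protein, read 57.5 and 111 in Mx, 128 and 109 in ORS, 201 and 229.6 in DF, 209.8 and 213 in DP and 94.2 and 186 in Mc, and Eif5b, the GTPase of subunit joining, 222 and 277 in Mx, 202 and 181 in ORS, 123 and 118 in DF, 101 and 126 in DP and 110.3 and 125 in Mc. Fitted with no filter, 29 of all 52 factors passed the F-test, against 45.8% of all genes. Of the 12 removed by the filter 4 passed, namely Eif5b (adjusted p = 0.00319), Eif2ak3 (0.00527), Eef1a2 (0.028) and Eif4e3 (0.0473). The share among all genes under the filter was not taken, so this count has no like share beside it.

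Compared in pairs, the populations gave the most calls between Mx and DP, Mc or DF. Between Mx and DP 27 of 40 were called (67.5%), 25 of them higher in Mx, against 51.4% of genes in either direction. All shares of genes in these pairs are in either direction. Of the 3840 genes, 941 were higher in Mx than in DP and 1033 were lower. Against Mc these counts were 985 and 834, and against DF 750 and 939. Between Mx and Mc 25 were called, 24 of them higher in Mx, against 47.4%, and between Mx and DF 23, of which 20 were higher in Mx, against 44%. The last count was 15 without either of the DF arrays. Between Mx and ORS 6 were called, all higher in Mx, and these were Eef1e1, Eif1ax, Eif2b4, Eif2b5, Eif2s2 and Eif3i. Of genes 16.4% were called in either direction, 137 of the 3840 higher in Mx and 491 higher in ORS. With the filter set on the 8 arrays other than Mx, which leaves out Eef1e1, the other 5 were called, against 17.7% of genes. Leaving out 1 array of Mx or ORS changed that count to between 1 and 16.

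Between ORS and DP 16 factors were called, 14 of them higher in ORS, against 30.6% of genes (665 higher in ORS and 510 in DP). Between ORS and Mc 12 were called, all higher in ORS, against 37.2% of genes (894 higher in ORS and 534 in Mc). Without 1 of the ORS or DP arrays the first count was 4 to 8, and without 1 of the ORS or Mc arrays the second was 3 to 5. Between ORS and DF 3 were called, against 24.8% of genes, with Eif2d and Eif3b higher in ORS and Eif1b in DF, and the count ranged from 0 to 9 as single arrays were left out.

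Among DF, DP and Mc few factors were called. DF and DP differed in 2, Eif2b2 and Eif4ebp1, both higher in DF, against 11.9% of genes. DF and Mc differed in 2, Eif1b and Eif4ebp1, both higher in DF, against 29.2%, and DP and Mc in 1, Eif4a2, higher in DP, against 24%. Leaving out single arrays gave 1 to 3, 1 to 6 and 0 to 4 calls. With both Mx arrays left out, the F-test over the 4 other populations called 20 of 40 factors (50%), against 59.9% of genes.

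Genes that work with the factors were read from a list of 42, of which 36 were on the array and 21 passed the filter. By the F-test 13 of the 21 differed and 4 were even, against the same 62.1% and 22.7% of genes, and 6 were higher and 1 lower in Mx, against 22.6% and 26.7%. Ppp1r15a, which brings a phosphatase to eIF2, read 631 and 452 in Mx, 646 and 484 in ORS, 1678 and 1167 in DF, 523 and 486 in DP and 155 and 134 in Mc. The DF arrays were highest and the Mc arrays lowest, a fold of 7.46 (F-test adjusted p = 6.68e-06, limma).

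Pdcd4, an inhibitor of the eIF4A helicase, read 1288 and 1705 in Mx, 721 and 742 in ORS, 335 and 625 in DF, 718 and 1013 in DP and 233 and 225 in Mc. The Mx arrays were highest and the Mc arrays lowest, a fold of 5.5 (F-test adjusted p = 5.63e-05). Impact, an inhibitor of the kinase encoded by Eif2ak4, read 77 and 83 in Mx, 127 and 126 in ORS, 235 and 176 in DF, 564 and 440.4 in DP and 409 and 361 in Mc, with DP highest and Mx lowest. Mknk2, a kinase of the cap-binding protein, read 969 and 1808 in Mx, 1117 and 1136 in ORS, 1216 and 1012 in DF, 1239.5 and 1063 in DP and 3001 and 2965 in Mc, with Mc above all others.

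Of the other partners, Abce1, which splits ribosomes for reuse, and Denr, a factor of reinitiation, were highest in Mx, with F-test adjusted p-values of 0.0055 and 0.00206. Paip1, which binds the poly(A)-binding protein, had its widest difference between ORS and DF, a fold of 2.01. Atf4, a transcription factor made when eIF2 is phosphorylated, was lowest in Mc at 910.3 and 586.8 against 1161 to 1593 elsewhere, and its target Asns had its widest difference between ORS and DP, a fold of 1.93, with Mc arrays far apart at 451.6 and 212.4.

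The promoters of the factors were searched for the letters CACGTG, an E-box of the kind that Myc family proteins bind, which reads the same on both strands. No other motif was searched. RefSeq start sites were found for 42 of the 52 genes, and 10 of these (23.8%) held the letters within 250 bases upstream, against 6.86% of all 27025 genes in the table and 11.7% of the 3164 tested genes with a promoter. The letters were in 4 of 18 factors higher in Mx (22.2%) and in 4 of 14 tested factors that were not (28.6%), and in 5 of 20 differing and 3 of 8 even genes. The windows below, of 30 bases with the match in capitals, show it first in 4 factors higher in Mx and then in 3 even ones, and were chosen after the values were seen. They lie in GRCm38.p6 in Eif3k at chr7:28981915-28981944 (minus strand), Eif3f at chr7:108934335-108934364 (plus strand), Eif4a1 at chr11:69672595-69672624 (minus strand), Eif5a at chr11:69921443-69921472 (minus strand), Eif4e at chr3:138527192-138527221 (plus strand), Eif4h at chr5:134639488-134639517 (minus strand) and Eef2 at chr10:81176576-81176605 (plus strand), and are printed 5′ to 3′ along the gene.
Eif3k: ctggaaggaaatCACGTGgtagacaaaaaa
Eif3f: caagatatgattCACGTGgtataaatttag
Eif4a1: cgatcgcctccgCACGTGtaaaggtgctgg
Eif5a: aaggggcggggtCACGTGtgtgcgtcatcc
Eif4e: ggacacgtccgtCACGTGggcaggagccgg
Eif4h: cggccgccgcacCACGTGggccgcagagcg
Eef2: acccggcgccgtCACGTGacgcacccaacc
The match lay 39 bases before the start site of Eif3k and 59 bases before that of Eif4e.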

How the data were processed

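In all, 10 arrays (Affymetrix MOE430A), 2 for each of 5 sorted populations, were read from the deposited table. Its values are intensities on a linear scale, MAS 5.0 signals that the authors scaled for each array after one round of RNA amplification. Without the 64 controls the array had 22626 probe-sets, of which 20380 carried 1 gene symbol, 691 several and 1555 none. Of the factors' probe-sets 118 carried a single symbol and 6 several, and the latter were not used. Groups came from the sample titles, and replicate numbers were not taken as pairs. Scanner settings gave the chip lots.

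Probe-sets with a mean log2(signal + 50) at or above that of a signal of 200 were tested, 5824 in all, which represented 3840 genes. A fit with limma 3.58.1 (R 4.3.3) held a mean for each population, and contrasts and a moderated F-test were adjusted by Benjamini-Hochberg over all tested probe-sets. Unadjusted 95% intervals defined even genes. The fit was tested on simulated data. Arrays have no depth, and their number limits the precision. Factors, lists and thresholds were chosen with earlier results of these data known. The genes named were those of at least 2-fold that passed the F-test, the 8 flattest, those under the filter, regulators and paralogs, and 8 partners, and the remaining factors and Atf4 were added after their values were seen, the factors so that each is accounted for. Alternatives were other pseudocounts, filters, scalings, probe-sets, blocks and variance priors, and each array left out. Fits without the low-Xist arrays, without Mx, with a filter on the 8 arrays other than Mx and within a chip lot were added after the data were seen. Sequences are from RefSeq (GRCm38.p6). Present calls and raw images were not used here. Python 3.11.15 with pandas 2.3.3, numpy 2.4.6 and matplotlib 3.10.9 was used for counts and plots.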

Additional observations from a re-analysis of the deposited data

How the results depend on the processing

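The 23 factors higher in Mx became 22 to 27 under the other settings, with 22 or 23 of the 23 among them wherever the same probe-sets were used, and the 26 that differed became 24 to 30. With no filter 4 factors were lower in Mx, 1 lower in ORS, 3 lower in DF, 2 higher in DP and 1 higher in Mc, and ORS against DF gave 5 calls, DF against Mc 5 and DP against Mc 2. With 200 required in both arrays of a population, 3 were lower in Mx, 2 lower in ORS and 2 higher in DP. With a bound of 100 these were 3, 1 and 2, and 1 was higher in Mc. Quantile normalization gave 1 lower in ORS, 1 higher and 4 lower in DF, 1 higher and 6 lower in Mc, 6 calls for ORS against DF, 6 for ORS against Mc and 4 for DP against Mc. Rescaling to the trimmed mean moved the median gene by 0.11 in Mx and gave 1 lower in ORS, 1 higher and 3 lower in DF, 1 higher and 5 lower in Mc, 3 calls for ORS against Mc and 2 for DP against Mc. The share of all genes higher in Mx also moved with the setting. It was 26.3% after the quantile step, where 23 factors were higher, and 28.6% after rescaling, where 27 were. With no filter it was 11.8%, where 25 of 52 factors were higher. The Mx medians of factors and of all genes were 0.44 and 0.04 after the quantile step and 0.72 and 0.06 after rescaling. As single arrays were left out, these medians ran from 0.55 to 0.66 and from -0.17 to 0.03. A filter on the 8 arrays other than Mx gave 2 lower in Mx, 1 lower in ORS and 2 higher in DP. The second probe-set gave 2 lower in DF and 2 calls for DP against Mc. Without Mx 1 and ORS 1, 0 were lower in Mx, 1 higher and 2 lower in ORS, 2 lower in DF and 2 higher in DP, with 2 calls for Mx against ORS, 10 for ORS against DP, 5 for DF against Mc and 4 for DP against Mc.

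With each array left out in turn, where a lone array was assumed to vary like the others, 24 to 29 factors differed, 5 to 10 were even and 10 to 14 partners differed. Counts higher were 23 to 25 in Mx, 1 to 7 in ORS, 1 to 3 in DF, 0 to 2 in DP and 0 to 1 in Mc, and counts lower 0 to 2, 0 to 1, 0 to 5, 1 to 22 and 1 to 19. Calls were 1 to 16 for Mx against ORS, 15 to 22 against DF, 22 to 28 against DP and 20 to 26 against Mc, 0 to 9, 4 to 23 and 3 to 17 for ORS against DF, DP and Mc, 1 to 3 and 1 to 6 for DF against DP and Mc, and 0 to 4 for DP against Mc.

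With the replicate number as a block, 25 factors were higher in Mx, against 23.8% of genes, and 1 was lower in ORS. The correlations of the replicate differences ran from -0.08 (ORS and DP) to 0.36 (Mx and ORS), so the numbers were not taken as a pairing. With chip lot as a block 23 were higher in Mx and 25 differed, against 19.2% and 57.8% of genes. The causes of these shifts were not tested.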
